A study of Homo sapiens with 2 samples.

Results

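This account covers 10 genes of iron uptake, iron storage and heme breakdown in a hepatoma line: TF, TFRC, TFR2, FTH1, FTL, HAMP, HMOX1, SLC40A1, SLC11A2 and HFE. They were taken by symbol, and all 10 had 1 row each among the 24991 distinct single-gene symbols of the deposited table. RNA was sequenced from PLC/PRF/5, an established human hepatocellular carcinoma line, for a study whose title names carnosine, pH inside the cell and evasion of immunity through the lysosome. Both libraries came from cells kept under hypoxia. 1 library came from cells with an empty vector (EV) and 1 from cells in which NFX1, a transcription factor with zinc fingers, was overexpressed. The oxygen level, its duration and whether the overexpressing cells were 1 clone are not stated by the labels. Each group is 1 library, so nothing could be checked against replicates or tested, and each difference is one between 2 libraries and cannot be carried over to the conditions.

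Iron reaches most cells bound to transferrin, which its receptor carries into endosomes, where the iron is reduced and exported to the cytosol. Cells store iron in ferritin shells built of heavy and light chains and release it through ferroportin, which the liver hormone hepcidin closes. Heme oxygenase opens the heme ring, giving iron, carbon monoxide and biliverdin. Iron regulatory proteins hold the system together: when iron is scarce they bind hairpins called iron-responsive elements, which blocks translation when the hairpin lies before the coding region and protects the RNA from decay when it lies after it, as in the transferrin receptor. The hepatocyte makes both transferrin and hepcidin and is the main iron store of the body.

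The iron-responsive elements are shown first because their place bears on how they act. Before the coding region they act on translation, which RNA levels do not read, and after it on RNA stability. Human transcripts of GENCODE release 29 (GRCh38) were searched on the sense strand for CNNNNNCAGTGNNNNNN, with each of the 5 bases before the CAGTGN loop pairing (G with T allowed) with the 5 after it. Elements with all 5 pairs lay in the 5′ UTR of FTH1, FTL and SLC40A1 and at 4 places in the 3′ UTR of TFRC. A site with 4 of the 5 pairs lay in the 3′ UTR of SLC11A2. Each is written 5′ to 3′ with the loop in capitals, as DNA letters, and coordinates are GRCh38.
FTH1, 5′ UTR, chr11:61967575-61967601, minus strand: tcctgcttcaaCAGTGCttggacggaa
FTL, 5′ UTR, chr19:48965336-48965362, plus strand: tcttgcttcaaCAGTGTttggacggaa
SLC40A1, 5′ UTR, chr2:189580662-189580688, minus strand: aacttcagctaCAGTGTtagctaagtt
TFRC, 3′ UTR, chr3:196050980-196051006, minus strand: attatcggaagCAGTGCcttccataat
TFRC, 3′ UTR, chr3:196050576-196050602, minus strand: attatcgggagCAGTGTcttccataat
TFRC, 3′ UTR, chr3:196050511-196050537, minus strand: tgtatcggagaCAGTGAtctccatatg
TFRC, 3′ UTR, chr3:196050464-196050490, minus strand: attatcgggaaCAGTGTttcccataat
SLC11A2, 3′ UTR, chr12:50988270-50988296, minus strand: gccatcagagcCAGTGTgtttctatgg
All 5 pairs were found in 1.48% of 19669 genes with protein-coding transcripts and in 5 of the 10 genes here, the fifth being TF. The TF match lay at chr3:133792674-133792700 in the 3′ UTR of a single long transcript. At least 4 pairs were found in 11.2% of genes and in 7 of the 10, which adds SLC11A2 and HFE, both in the 3′ UTR. A match of these letters is a description and does not show that a protein binds there. The letters searched are those of known iron-responsive elements, as in the transferrin receptor. The 5 of 10 beside 1.48% is therefore not a test of these genes.

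The values are FPKM, fragment numbers scaled to transcript length and to library size. The vector library held about 26.3 M fragments, an estimate that rests on 6 olfactory receptor genes. From the steps between low values the NFX1 library held 1.14 times as many. All fragment numbers and counting intervals given here scale with that estimate. NFX1 itself had 4.21 FPKM with the empty vector and 56.0 FPKM with NFX1, a fold of 13.3, as its label says. Hepatocyte markers were unevenly kept. SERPINA1 (alpha-1-antitrypsin) had 5935 and 6807 FPKM, and the keratin KRT18 had 1502 and 1783 FPKM. ALB (albumin) had only 0.776 and 1.06 FPKM and TTR 1.38 and 1.96 FPKM, while AFP had 7.48 and 7.73 FPKM and APOA1 84.2 and 90.7 FPKM. The summed level of the 7 listed hepatocyte markers was 8672 and 10109 FPKM. Most of that sum came from SERPINA1 and the keratins KRT18 and KRT8 (1140 and 1418 FPKM). Of 5 listed macrophage markers CD163, MARCO and VSIG4 were listed at 0 in both libraries and CD68 was the only one above 1 FPKM, while none of 3 endothelial and none of 4 stellate or fibroblast markers reached 1 FPKM. Of the blood markers, PTPRC was listed at 0 in both, and the globins HBA1 and HBA2 had 8.72 and 3.63 FPKM in the vector library and 13.1 and 6.03 FPKM in the NFX1 library; their part in any result was not tested. In RNA from a whole culture, fewer cells making an RNA and less of it per cell cannot be told apart.

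The genes spanned more than 4 orders of magnitude. FTL, FTH1 and TF were among the most abundant RNAs of these cells, TFRC and HMOX1 lay between 185 and 225 FPKM, SLC11A2 and HFE between 18.1 and 22.9 FPKM, and SLC40A1, TFR2 and HAMP below 1 FPKM. The order of the levels was the same in both libraries, except that HAMP, at 0, had no measurable place. Changes are given as log2 of the ratio of FPKM + 1, NFX1 over vector, for the 7 genes with at least 1 FPKM in a library, out of 11182 such genes.

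**Figure D1:**
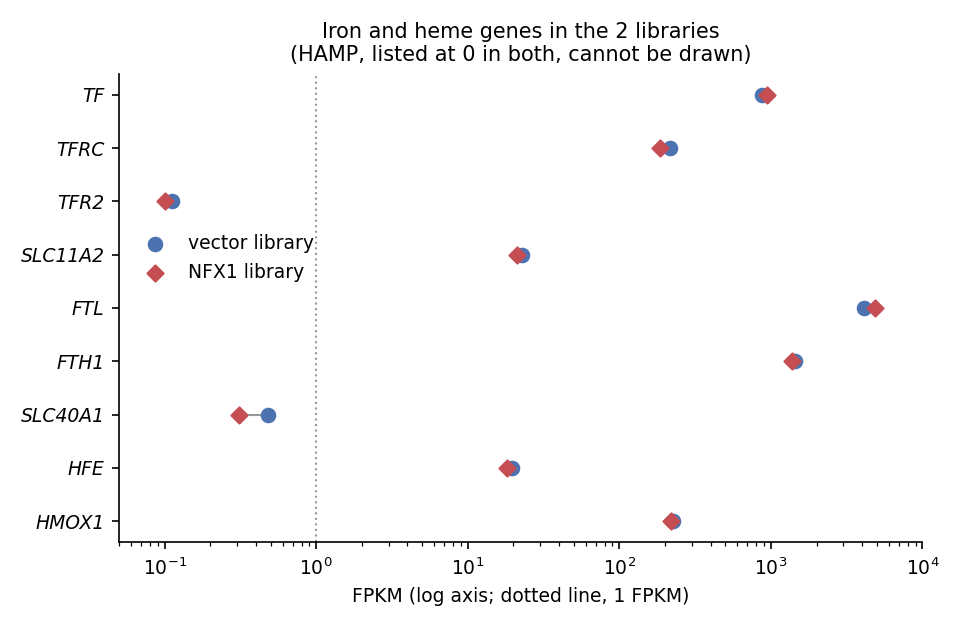
FPKM (log axis) of 9 of the 10 genes in the vector library (circles) and the NFX1 library (diamonds), 1 library each; HAMP, listed at 0 in both, is not drawn. The pairs of points nearly coincide, and only SLC40A1, at 0.479 and 0.309 FPKM, shows a visible gap, from an estimated 22 and 16 fragments.

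None of the 7 measured genes differed by 2-fold between the libraries, and none passed a lower limit of 0.32 on the log2 scale in either direction. Over all 11182 genes, 0.143% passed 2-fold and 8.42% passed the lower limit, 6.12% with a higher and 2.3% with a lower value in the NFX1 library. The greatest differences were those of FTL, at 0.24, and TFRC, at -0.22. 2 of the 7 had higher and 5 had lower values in the NFX1 library, against 52% higher and 48% lower over all genes. Their median change was -0.07, beside 0.01 over all genes. A second description uses the exact (Clopper-Pearson) 95% interval of the FPKM fold from estimated fragments, which covers counting error alone. That interval excluded 1 on the higher side for TF and FTL and on the lower side for TFRC, FTH1 and SLC11A2. It also excluded 1 for 26.7% of genes on the higher side and for 13.6% on the lower side, and abundant genes exclude it at small folds.

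The change of all genes followed base composition in these libraries: the fifth of genes with the lowest GC content (median 40.4%) had a median change of -0.11 and the fifth with the highest (median 62.5%) a median of 0.20. Values after removal of the trend on GC content, transcript length and level are therefore given beside those as deposited. After it 6 of the 7 genes were lower and 1 was higher, against 49.7% and 50.3% of all genes. Their median was then -0.17, beside 0.00 over all genes. Still none passed the 0.32 limit, which 1.95% of all genes did on the higher and 1.87% on the lower side. What part the trend has in the change of any one gene was not tested.

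**Figure D2:**
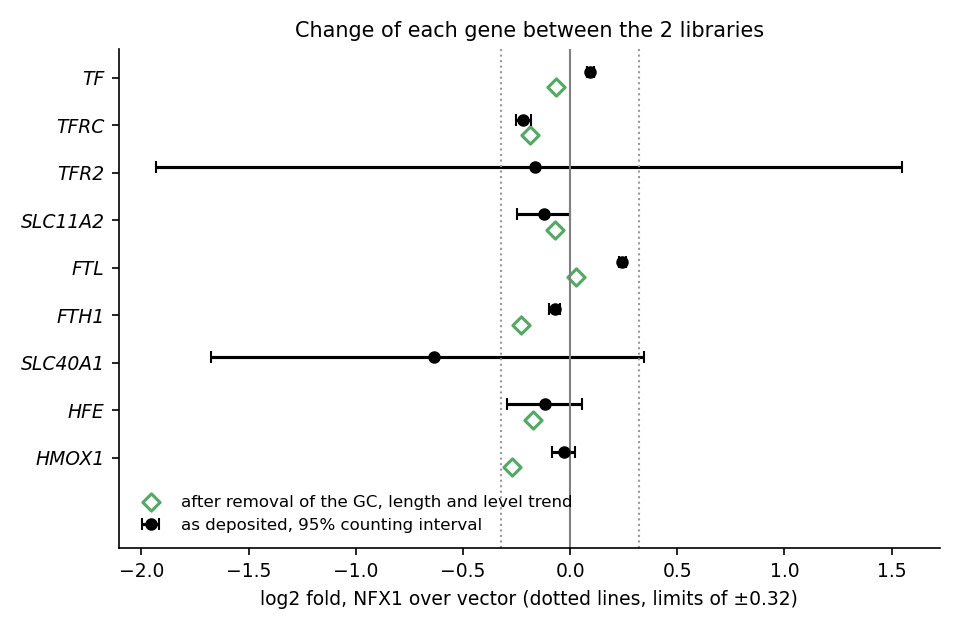
Log2 fold, NFX1 over vector, of 9 genes: filled points with bars give the deposited FPKM ratio and its 95% counting interval, open diamonds the change after removal of the trend for the 7 genes with at least 1 FPKM. All 7 lie between the dotted lines at the lower limit (0.32 and -0.32) by either measure, and the bars of TFR2 and SLC40A1 are wide because few fragments stand behind them.

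Transferrin was abundant. TF (chromosome 3, 133464977 to 133497850, hg19), the plasma iron carrier, had 879 FPKM with the empty vector and 938 FPKM with NFX1, ranks 115 and 119 among all symbols. The fold was 1.07 with a counting interval of 1.06 to 1.08. Its change of 0.09 lay at percentile 63.8 of all genes and turned to -0.07 after removal of the trend, so its direction depends on that step. The GENCODE transcripts of TF are mostly partial, with 1 that is very long, so the GC content and length used for that step are uncertain for this gene. Its FPKM was far above that of ALB, the other major carrier protein made by hepatocytes.

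Both transferrin receptors are membrane proteins that bind transferrin, and their RNA levels were at opposite ends. TFRC (chromosome 3, 195776155 to 195809032, hg19), the receptor that takes transferrin into the cell, had 216 FPKM with the empty vector and 185 FPKM with NFX1. The fold was 0.860 with a counting interval of 0.839 to 0.881, from an estimated 12921 and 12671 fragments. Its change of -0.22 lay at percentile 9.04 of all genes, and at -0.19 and percentile 8.21 after removal of the trend. TFRC has the lowest GC content of the 10, at 41.5%, and its change was little altered by the step that moved TF, FTL and HMOX1. TFR2 (chromosome 7, 100218039 to 100239173), the hepatocyte receptor that senses loaded transferrin and takes part in hepcidin control, had 0.112 and 0.1001 FPKM, an estimated 7 fragments in each library. The counting interval of its fold, 0.262 to 2.93, leaves a difference of either sign not detectable at this depth. Per length, TFRC RNA was 1925 times that of TFR2 in the vector library and 1853 times in the NFX1 library.

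The next steps of uptake had mostly lower values. SLC11A2 (chromosome 12, 51373566 to 51422058), which encodes DMT1, the transporter that moves ferrous iron out of the endosome, had 22.9 FPKM with the empty vector and 21.0 FPKM with NFX1. The fold was 0.918 with an interval of 0.843 to 0.999, and its change of -0.12 was -0.07 after removal of the trend. With shorter transcript lengths the interval was 0.830 to 1.01 and no longer excluded 1. TFRC and SLC11A2, whose 3′ hairpins are printed above, both had the lower value in the NFX1 library, as did 48% of all genes. Of the other genes with a 3′ match, HFE was lower (-0.11) and TF was higher as deposited (0.09).

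Of the 8 listed genes for endosomal iron reduction and for iron delivery and release inside the cell, 6 were measured, 4 with lower and 2 with higher values and none past the 0.32 limit. Over all genes 48% were lower, 52% higher and 8.42% past that limit in either direction. STEAP3, an endosomal ferric reductase, had 27.7 and 25.1 FPKM (log2 change -0.14, or -0.26 with the trend removed). STEAP1 had 4.26 and 3.41 FPKM (log2 change -0.25, or -0.16 with the trend removed), and its fold had an interval of 0.607 to 1.05. The iron chaperone PCBP1 had 257 and 284 FPKM (log2 change 0.14, or -0.02 with the trend removed). STEAP2, left out by the 1 FPKM minimum and named after its values were seen, had 0.772 and 0.338 FPKM with an interval of 0.219 to 0.841 for the fold. SLC39A14, which takes up iron not bound to transferrin, had 164 and 134 FPKM, with a fold of 0.819 and an interval of 0.790 to 0.848. Its change was -0.29, and after removal of the trend it was -0.45, past the limit on the low side. The related SLC39A8 had 1.69 and 1.46 FPKM (log2 change -0.13, or 0.00 with the trend removed) and the duodenal reductase CYBRD1 stayed below 1 FPKM.

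Both ferritin chains had high RNA levels, with a higher light chain value and a lower heavy chain value in the NFX1 library. FTL (chromosome 19, 49468566 to 49470136), the light chain that favours mineral formation, had 4129 FPKM with the empty vector and 4891 FPKM with NFX1, rank 15 of all symbols in both. The fold was 1.18 with an interval of 1.17 to 1.197. FTH1, the heavy chain with the ferroxidase site, had 1439 FPKM with the empty vector and 1369 FPKM with NFX1, a fold of 0.951 with an interval of 0.933 to 0.969. Per length the light chain RNA was 2.87 times the heavy chain RNA in the vector library and 3.57 times in the NFX1 library.

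FTL lay at percentile 86.0 of all changes as deposited, and its change of 0.24 was 0.03 after removal of the trend. FTH1, with a change of -0.07, was at -0.23 and percentile 5.15 after it. The change of FTL thus exceeded that of FTH1 by 0.32 as deposited and by 0.26 with the trend removed, while the share of each chain in that gap depended on the step. FTL and FTH1 each carry a 5′ hairpin, whose known effect is on translation, and these RNA values do not read ferritin protein. The row of FTH1 gives a locus (chromosome 11, 61717356 to 61735132, hg19) that it shares with BEST1, which had 0.203 and 0.209 FPKM in a row of its own. Of the ferritin copies and relatives listed, FTH1P3 had 0.121 and 0.175 FPKM and FTHL17 0 and 0.0441 FPKM. FTH1P18, FTLP10 and the mitochondrial ferritin FTMT were listed at 0 in both libraries. Ferritin genes have near-identical processed copies, and how the authors assigned reads that fit several of them is not given in the sources used here, so the ferritin values are uncertain to that extent. NCOA4, which delivers ferritin to the lysosome for iron release, had 16.3 and 13.6 FPKM, a fold of 0.835 with an interval of 0.757 to 0.922. Its change was -0.24, and -0.15 after removal of the trend.

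Ferroportin RNA was scarce. SLC40A1 (chromosome 2, 190425316 to 190445537), the only known cellular iron exporter, had 0.479 FPKM with the empty vector and 0.309 FPKM with NFX1, an estimated 22 and 16 fragments. Its fold of 0.645 is the one farthest from 1 among the 10 genes, but the counting interval was 0.313 to 1.27, so a difference was not detectable at this depth. Per length, the importer SLC11A2 was 47.8 times as abundant as the exporter in the vector library and 68.0 times in the NFX1 library. CP, ceruloplasmin, the secreted ferroxidase that works with ferroportin, had 246 and 188 FPKM. Its fold was 0.767 with an interval of 0.751 to 0.782, and its change of -0.38 lay at percentile 1.15 of all genes and was -0.37 after removal of the trend. The other listed ferroxidases, HEPH and HEPHL1, were below 1 FPKM.

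Hepcidin RNA was not seen, while part of the machinery that controls it was present. HAMP (chromosome 19, 35773410 to 35776045), which encodes hepcidin, was listed at 0 in both libraries. A count of 0 allows up to 0.453 FPKM with the empty vector and 0.397 FPKM with NFX1, by 3 fragments per library over a coding length of 252 bp and for counting error only. HFE (chromosome 6, 26087509 to 26095469), an MHC class I-like protein that binds TFRC and takes part in hepcidin induction, had 19.6 FPKM with the empty vector and 18.1 FPKM with NFX1. Its fold was 0.921 with an interval of 0.817 to 1.04, and its change of -0.11 was -0.17 after removal of the trend. HFE and TFRC were thus both present, while TFR2, the third protein of that sensing system, was near the floor. HFE2 (hemojuvelin, the BMP co-receptor of this pathway) had 0.0457 and 0.0368 FPKM, and TMPRSS6, the protease that cleaves hemojuvelin, 0.0192 and 0.0834 FPKM.

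Of the 21 hepcidin control genes with a row, 16 were measured, with a median of -0.06. Lower values were found for 12 and higher for 4, beside 48% and 52% over all genes. Beside 2.3% of all genes, 1 of the 16 passed the 0.32 limit on the low side. That gene was BMP6, the BMP ligand that signals iron load to hepatocytes, with 5.69 FPKM with the empty vector and 3.80 FPKM with NFX1. The fold was 0.668 with an interval of 0.545 to 0.815, and the change of -0.48 lay at percentile 0.456 and was -0.52 after removal of the trend. ID1, a target of BMP signalling, had 1554 and 1565 FPKM, a fold of 1.01 with an interval of 0.987 to 1.03. Its change of 0.01 was -0.23 after removal of the trend. The BMP receptor BMPR1A had 6.99 and 5.85 FPKM (log2 change -0.22, or -0.08 with the trend removed). The table listed FAM132B (erythroferrone, a hepcidin suppressor) at 1.81 and 2.30 FPKM (log2 change 0.23, or 0.08 with the trend removed), with an interval of 0.881 to 1.87 for the fold. ID1 was chosen as an example after its values were seen.

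Heme oxygenase 1 was high and nearly equal in both libraries. HMOX1 (chromosome 22, 35777060 to 35790207), the inducible enzyme of heme breakdown, had 225 FPKM with the empty vector and 221 FPKM with NFX1. The fold was 0.980 with an interval of 0.943 to 1.02. Its change of -0.03 was in the smallest 10.8% of all genes by size, but with a GC content of 60.8% it stood at -0.27 and percentile 3.19 after removal of the trend, the lowest of the 7. The constitutive HMOX2 had 30.3 and 36.1 FPKM (log2 change 0.25, or 0.11 with the trend removed), and HMOX1 was 7.45 times HMOX2 per length in the vector library and 6.11 times in the NFX1 library.

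Downstream and around it, 12 of 13 listed genes of heme breakdown and transport were measured. Of these 6 were higher and 6 lower, with a median of 0.00 and none past the 0.32 limit. Over all genes 52% were higher, 48% lower and 8.42% past that limit in either direction. The heme exporter FLVCR1 had 6.74 and 5.48 FPKM (log2 change -0.26, or -0.14 with the trend removed), and the heme-binding membrane protein PGRMC1 46.4 and 38.4 FPKM (-0.27, or -0.20). The biliverdin reductases are examples chosen after their values were seen. BLVRB had 178 and 206 FPKM, and its change of 0.21 turned to -0.04 with the trend removed. BLVRA had 31.8 and 32.4 FPKM, with changes of 0.03 and 0.01. Of the plasma scavengers made by normal liver, HP (haptoglobin) was listed at 0 in both libraries, and HPX (hemopexin) had 1.76 and 1.69 FPKM.

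Genes of heme synthesis had a median of 0.12 over 8 of 9 genes, and of 0.02 after removal of the trend. Of these 6 were higher and 2 lower, beside 52% and 48% over all genes. None passed the 0.32 limit, which 8.42% of all genes did in either direction. ALAS1, the rate-limiting enzyme of the liver, had 50.6 and 58.2 FPKM (log2 change 0.20, or 0.14 with the trend removed), and UROD had 110 and 126 FPKM (0.20, or 0.02). ALAS2, its erythroid counterpart, was listed at 0 in both libraries.

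Mitochondrial iron and iron-sulphur genes had a median of 0.07 over 12 of 13 genes. Of these 9 were higher and 3 lower, beside 52% and 48% over all genes. On the high side 2 passed the 0.32 limit, beside 6.12% of all genes. ABCB8, a mitochondrial transporter linked to iron export, had 12.8 and 16.9 FPKM (log2 change 0.37, or 0.21 with the trend removed). CISD1, an iron-sulphur protein of the outer mitochondrial membrane, had 11.0 and 12.4 FPKM (log2 change 0.15, or 0.25 with the trend removed), with an interval of 0.847 to 1.48 for the fold. The iron regulatory proteins themselves had near-equal values. ACO1 had 17.8 and 18.1 FPKM (log2 change 0.02, or 0.10 with the trend removed) and IREB2 6.26 and 6.11 FPKM (-0.03, or 0.08). FBXL5, the ubiquitin ligase subunit that degrades IREB2 when iron is plentiful, had 3.27 and 2.83 FPKM (-0.16, or -0.05), with an interval of 0.6997 to 1.07 for the fold.

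**Figure D3:**
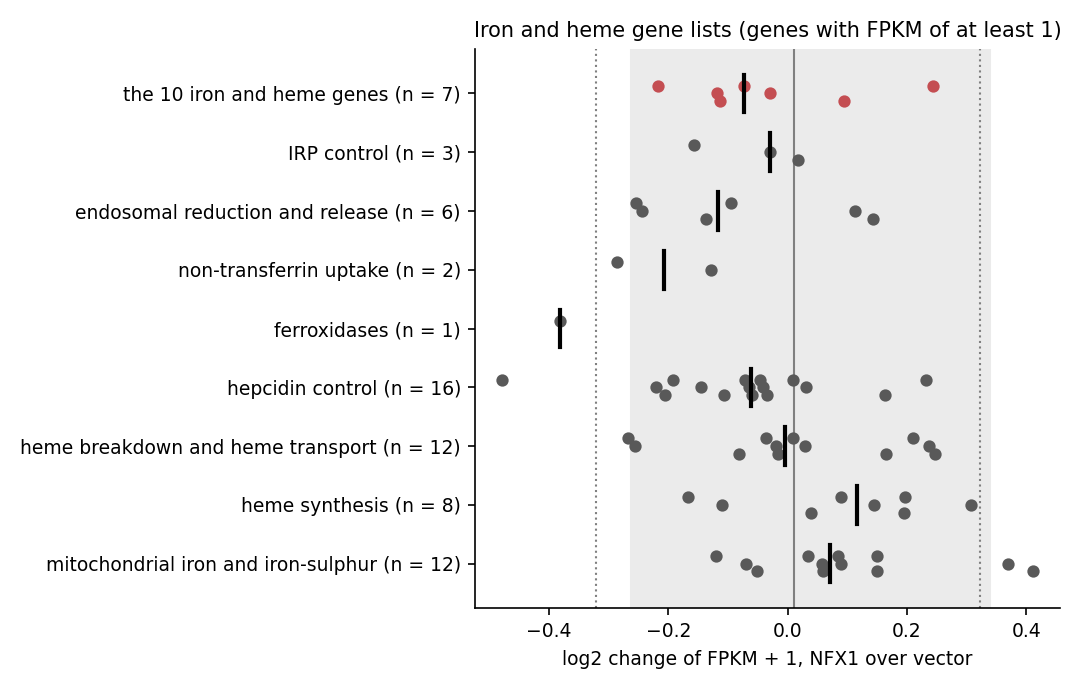
Log2 change of FPKM + 1, NFX1 over vector, for the measured genes (points) of the 10-gene set and of 8 lists of other iron and heme genes; black bars are list medians, dotted lines the limits of 0.32 and -0.32, the grey band the 5th to 95th percentile of all measured genes (-0.26 to 0.34) and the grey line their median. Points outside the dotted lines include BMP6 at -0.48, CP at -0.38 and ABCB8 at 0.37.

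Over all 8 lists, 60 of the 73 genes in the table were measured, and 2 passed the limit on the high side (ABCB8 among them) and 2 on the low side (BMP6 and CP). These shares of 3.33% in each direction stand beside 6.12% higher and 2.3% lower over all genes, so neither share is a result about the lists. The split became 1 higher and 4 lower with upper quartile scaling, which lowers the changes of all genes by up to 0.07. The share of all genes past the limit under that scaling is not given here, so this split is not a result about the lists. With the trend removed the split became 1 higher and 3 lower, beside 1.95% and 1.87% of all genes. Whether the lists differ from all genes in these settings was not tested. The median over the 60 was -0.02, with 28 higher and 32 lower, beside 52% and 48% over all genes.

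**Figure D4:**
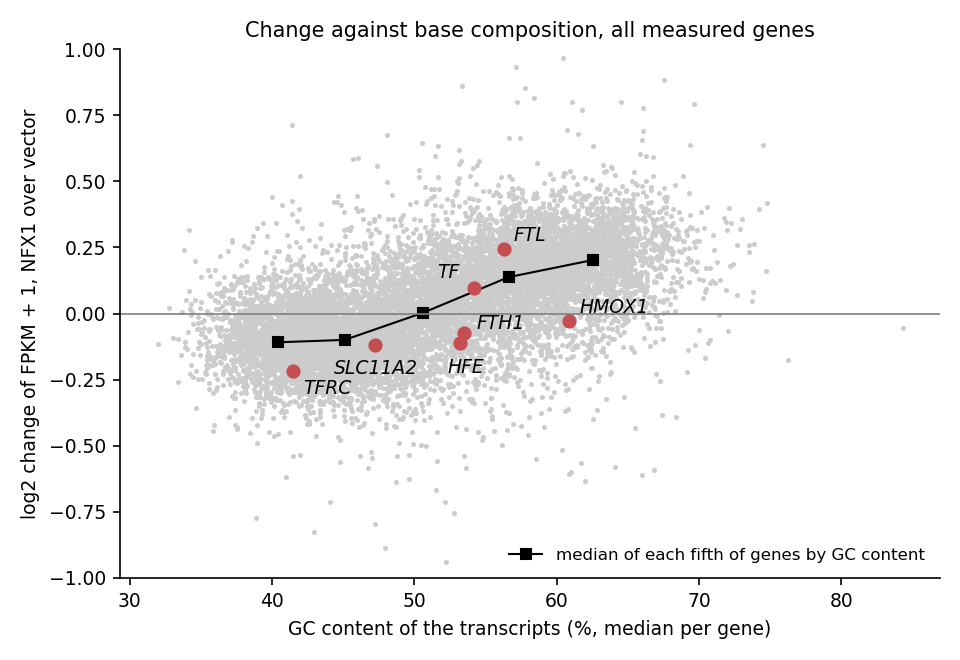
Log2 change of FPKM + 1, NFX1 over vector, against the median GC content of each gene's transcripts: grey points are measured genes with a transcript match (13 genes beyond 1 or -1 are not drawn), black squares the medians of 5 equal groups by GC content, red points the 7 measured iron and heme genes. FTL lies above the line and TF close to it, while HMOX1, FTH1, HFE, TFRC and SLC11A2 lie below it.

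In the authors' deposited table, 8 of the 10 genes were tested and none was marked significant, beside 18 of all 14994 tested rows. The lowest p there was 0.176, for SLC40A1 at -0.63 (log2), and the q of each of those 8 was 0.999; HAMP and TFR2 were not tested. TFRC was given p = 0.421 and FTL p = 0.408 in the authors' deposited table. With 1 library per group, such p-values carry no information on how cultures vary.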

How the data were processed

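RNA-seq of 2 PLC/PRF/5 cultures was used, with groups from the genotype labels. The submitters' processing notes name TopHat2 (2.1.0) with Cufflinks (2.2.1), on hg19; settings, annotation and scaling are not given in the sources used here. Per the file headers the authors deposited FPKM for each library, and for each row their log2 fold change, p-value, q-value and test score. A repeated symbol was represented by its highest row. Changes are log2 ratios of FPKM + 1 (pseudocount 1), for genes reaching 1 FPKM in either library, with limits of 1 and 0.32 (log2). The 10 genes, the lists and the tests were chosen with earlier results of these data known.

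Named genes were NFX1, the 10 genes and up to 3 per list by size of change; others are named as examples, and some chosen by this rule are not reported. Depth came from the most common step among olfactory receptor genes (26.3 M and 29.9 M fragments, from 6 and 7 genes). Among 2950 low rows, 42.4% of ratios lay within 0.02 (log2) of ratios of up to 4 whole fragments, while shifted grids gave 6.49% (median), which set the depth ratio of 1.14. Fragments used the longest GENCODE coding length, which leaves out UTRs. Against median transcript lengths this gave narrower intervals for some genes and wider ones for others. The interval of TFRC was 0.839 to 0.881 against 0.818 to 0.903, and that of FTL 1.172 to 1.197 against 1.175 to 1.195. The trend was fitted with cubic splines for 10966 genes (98.1%) and took 40.5% of the variance. GC content is the median over a gene's transcripts. Symbols were matched through RefSeq synonyms. Locus starts were converted to count from 1. The depth ratio, the fold calls, the trend removal and the interval formula were tested on simulated data. The depth from olfactory receptor genes and the fragments worked back from FPKM were not. No result on simulated data is given here for calls at the lower limit, or for trends with transcript length and level. The simulated data are therefore no evidence for those calls or for that part of the trend removal. Software was scipy 1.17.1, numpy 2.4.6 and pandas 2.3.3 under Python 3.11.15, with figures from matplotlib 3.10.9.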

Additional observations from a re-analysis of the deposited data

How the results depend on the processing

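No measured member passed 2-fold or 0.32 (log2) under any of the alternatives run (pseudocounts of 0.1 and 5 FPKM, no filter, FPKM of at least 5, centring, upper quartile scaling, summed rows, trend removed). None passed 1.5-fold at the pseudocount of 1 FPKM either. The setting with no filter kept that pseudocount, which shrinks changes below 1 FPKM, so it could hardly show one in SLC40A1, TFR2 or HAMP. Without a pseudocount SLC40A1 had -0.63 (log2), past 0.32 and 1.5-fold, from an estimated 22 and 16 fragments. The median change of the members, -0.07, was -0.15 with upper quartile scaling and -0.17 with the trend removed. TF, at 0.09 as deposited, had -0.067 with the trend removed, a reversed sign, and 0.02 with upper quartile scaling. The other 6 measured members kept their sign in every alternative. The 4 pathway genes past 0.32 (log2) became 1 with a pseudocount of 5 FPKM and 0 at a limit of 1.5-fold. Their split of 2 higher and 2 lower became 1 and 4 with upper quartile scaling, which lowers the changes of all genes. The share of all genes under that scaling is not given here, so that split is not a result about the lists. With the trend removed the split became 1 and 3, beside 1.95% and 1.87% of all genes. The members whose counting interval excluded 1 were 5 with coding lengths and 4 with median transcript lengths, a choice made after the data were seen. No paired analysis was possible because each group has 1 library, and for the same reason no library could be left out. Depth limits SLC40A1, TFR2 and HAMP, which rest on few or no fragments.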
